A study of Mesocricetus auratus with 24 samples.

Results

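Acly (ENSMAUG00000000465) and Sqle (ENSMAUG00000004073), 2 of the 22283 genes counted in hamster liver, encode ATP-citrate lyase and squalene epoxidase (squalene monooxygenase). Both belong to a list of metabolic genes that was selected on their difference between the HFD and HFD-T070 5% livers, so that contrast is described here without a test. Liver RNA was sequenced from 24 male wild-type golden Syrian hamsters, with 1 library per hamster. Of these, 8 received a normal diet (ND), 8 a high-fat diet (HFD) rich in hydrogenated coconut oil with added fructose and cholesterol, and 8 the HFD with 5% Totum-070, a mixture of plant extracts (HFD-T070 5%). Feeding began at 8 weeks of age and all groups were fasted for 6 h before collection. The duration was 12 weeks in the methods and 6 weeks in the labels. Hamsters shared cages of 2 or 3, and the labels do not give the cages. Total counts per library ranged from 10789142 (HFD replicate 7) to 20740364 (ND replicate 8). At both genes, the library labelled HFD replicate 1 lay far above the remaining 7 of its group, so results that rest on it are also given without it. It also lay within the ND range at Pla2g7 and Alox5, which were higher in the other HFD libraries. Both were chosen as the listed genes with the lowest Spearman's rho with Acly or Sqle over these libraries. Low values in this library were thus favoured by the choice and are given as a description. Alox5 was also near the floor in ND. Pla2g7 was at 7.87 CPM in this library, between 5.38 and 9.49 CPM in ND and at 40.4 CPM or more in the other HFD libraries, and Alox5 was at 0.209 CPM, at most 0.364 CPM in ND and at 0.600 CPM or more in the other HFD libraries. HFD replicate 1 lay above the ND range at Acly (3108 CPM, ND at most 2706 CPM). The same held at Lipg, another gene of the metabolic list (112.7 CPM, ND at most 90.9 CPM). A sample mix-up and an animal that did not respond to the diet cannot be told apart from these files. Defining markers of liver cells were not checked here, because the count table carries identifiers without symbols.

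ATP-citrate lyase splits citrate exported from mitochondria and so provides the acetyl-CoA of the cytosol, the carbon source for both fatty acid and cholesterol synthesis. It is known as a lipogenic gene that follows carbohydrate feeding and insulin through the transcription factors SREBP-1c and ChREBP. Squalene epoxidase oxidizes squalene in the first oxygen-requiring step of the sterol branch, which makes it a control point of cholesterol synthesis downstream of HMG-CoA reductase. It is known to be repressed when liver cells are rich in sterol.

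Acly varied widely within the groups. In the ND group, its level was between 163.9 CPM (the count relative to the library total, which TMM scaling adjusts for composition) in replicate 8 and 2706 CPM in replicate 7, with a median of 931.5 CPM, a 16.5-fold range. In the HFD group, 7 libraries lay between 33.4 and 72.3 CPM, with a median of 38.3 CPM. HFD replicate 1, at 3108 CPM, held the highest level of all 24 libraries. In the HFD-T070 5% group, the lowest level was 28.1 CPM, the median 70.7 CPM and the highest 216.8 CPM. That group fell into 3 libraries between 28.1 and 30.1 CPM (replicates 4, 5 and 6) and 5 libraries at 65.7 CPM or more. The ordering of the groups therefore depended on the summary. By means, the order was ND (1083 ± 858 CPM, SD, n = 8), HFD (425.9 ± 1084 CPM, SD, n = 8) and HFD-T070 5% (80.9 ± 62.8 CPM, SD, n = 8), whereas by medians HFD (38.6 CPM) came last.

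Sqle was at a far lower level, with far fewer counts in the same libraries. In the ND group, its level was lowest in replicate 7 (4.65 CPM, 78 counts) and highest in replicate 8 (18.3 CPM, 317 counts), with a median of 8.27 CPM. The HFD libraries other than replicate 1 lay between 2.19 and 3.26 CPM, with a median of 2.95 CPM and between 28 and 73 counts. HFD replicate 1 had 8.15 CPM, within the ND range, and 4 of the 8 ND libraries were above it. The HFD-T070 5% libraries lay between 1.18 CPM (21 counts) and 2.43 CPM (51 counts), with a median of 1.71 CPM. Group means were 9.96 ± 5.06 CPM for ND, 3.47 ± 1.93 CPM for HFD and 1.70 ± 0.394 CPM for HFD-T070 5% (SD, n = 8 each), and medians gave the same order. All 8 HFD-T070 5% libraries were below all ND libraries, as at 7.4% of the genes tested. On the contrast that selected the gene, 7 of 8 were below all HFD libraries, a description without a computed share of genes. In bulk liver RNA, fewer cells of a type and less RNA per cell cannot be told apart.

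**Figure D1:**
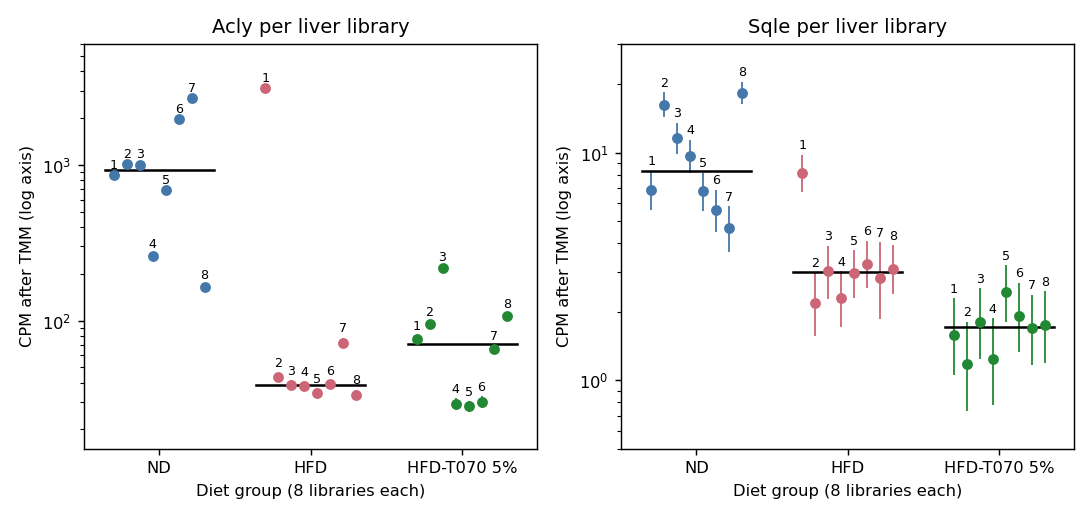
Level of Acly (left) and Sqle (right) in each of 24 liver libraries, in CPM after TMM scaling on a log axis, by diet group. Points are libraries with their replicate number, vertical lines are exact 95% Poisson intervals of the count (counting error only), and horizontal lines are group medians. Acly in HFD replicate 1 (3108 CPM) sits above all other libraries, and Sqle in the 8 HFD-T070 5% libraries (at most 2.43 CPM) sits below all ND libraries (at least 4.65 CPM). Such a gap from ND was found at 7.4% of the genes tested.

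The spread within groups differed between the genes. For Acly, the coefficient of variation was 79.3% in ND, 255% in HFD (31.6% without replicate 1) and 77.6% in HFD-T070 5%, where counting error alone gives between 0.767% and 3.76%. On the log2 scale, the SD of Acly was 1.36 in ND, 2.23 in HFD and 1.06 in HFD-T070 5%, larger than at 99.6%, 99.9% and 99.6% of the 13134 genes tested. The median SD of those genes was 0.21, 0.33 and 0.17. Without replicate 1, the SD of Acly in HFD was 0.38, close to the median of 0.29 over all genes.

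For Sqle, the spread came closer to counting error than for Acly, but in ND it was still large among genes. On the log2 scale, its SD was 0.71 in ND, larger than at 95.8% of the genes tested. It was 0.57 in HFD (79.9% of genes), 0.21 in HFD without replicate 1 (32.0%) and 0.31 in HFD-T070 5% (78.8%). Its coefficient of variation was 50.8% in ND, where counting error gives 8.05%, 55.6% in HFD, where it gives 13.1%, 14.5% in the HFD libraries without replicate 1, where it gives 14.0%, and 23.2% in HFD-T070 5%, where it gives 17.8%. Scatter of the Sqle counts around a common level, as chi-square over its degrees of freedom, was 42.0 in ND, 1.21 in HFD without replicate 1 (16.9 with it) and 1.75 in HFD-T070 5%. A value near 1 is what counting alone gives, so differences between single HFD libraries other than replicate 1 were not detectable at these counts.

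In HFD compared with ND, Sqle was lower, and the call of Acly depended on HFD replicate 1 and on the test. The median log2 fold change of all genes was −0.03. Sqle fell by 1.54 on the log2 scale (standard error 0.28, adjusted p = 7.16e-05, edgeR quasi-likelihood test), and 7 of 8 HFD libraries were below all ND libraries. Over the alternative settings, this adjusted p was between 7.88e-07 and 0.00116. Acly was at −1.35 (standard error 0.90, adjusted p = 0.213), although 7 of 8 HFD libraries were also below all ND libraries. Without HFD replicate 1, Acly fell by 4.65 (standard error 0.56, adjusted p = 1.46e-07), a 25.1-fold lower level, and Sqle fell by 1.80 (standard error 0.25, adjusted p = 1.04e-06). That library was set aside on its values at these genes, so the adjusted p-values without it are descriptions and not tests. With all libraries kept, Acly passed with limma voom (log2 fold change −3.44, adjusted p = 0.00132) and with the replicate number as a block (−3.74, adjusted p = 0.00189). By the labels, these numbers pair no animals, so the block is not a paired design. Over the alternatives, the adjusted p of Acly was between 1.46e-07 and 0.387. As background, 26.3% of the genes tested were called lower in this comparison, and 27.6% without HFD replicate 1. The 7 HFD libraries lay below all ND libraries at 9.51% of genes. When TMM was replaced by plain library totals, the direction and the call of both genes were the same, while the median of all genes moved to 0.29, and 1129 genes were called lower and 6608 higher, in place of 3452 and 3592.

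In HFD-T070 5% compared with ND, both genes were lower, in a contrast that uses the HFD libraries only for the common estimate of spread. Its HFD-T070 5% libraries, however, also entered the selection of both genes. That selection favoured low values in them, so the tests here are not independent of it. Acly was 13.4-fold lower (log2 fold change −3.74, standard error 0.99, adjusted p = 0.00391, edgeR), with 7 of 8 libraries below all ND libraries. The exception was HFD-T070 5% replicate 3 (216.8 CPM), which exceeded ND replicate 8 (163.9 CPM). Sqle was 5.82-fold lower (log2 fold change −2.54, standard error 0.30, adjusted p = 1.81e-06, edgeR), with no overlap. Of the genes tested, 21.0% were called lower in this comparison, and 7.40% were lower without overlap of the libraries. The share with 7 of 8 libraries below all ND libraries was not computed. Both calls were made under all alternative settings, with adjusted p-values up to 0.00895 for Acly and 2.56e-05 for Sqle. With library totals, the median of all genes moved from −0.01 to 0.21, and 907 genes were called lower and 5146 higher, in place of 2764 and 2925.

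In HFD-T070 5% compared with HFD, the contrast on which the study listed these genes, the values parted once HFD replicate 1 was set aside. The 2 diet comparisons above share libraries with this contrast. Over all libraries, Sqle was 2.01-fold lower in HFD-T070 5%, with a standard error of 0.31 on the log2 scale, and Acly had a log2 fold change of −2.39 with a standard error of 0.94. With all libraries kept, this value for Acly was −0.17 (standard error 0.72) with limma voom and 0.0737 (standard error 0.80) with the replicate number as a block. Without HFD replicate 1, the log2 fold change of Sqle was −0.72 (standard error 0.27), and that of Acly was 0.92 (standard error 0.48), opposite in sign to its value over all libraries. Of the 8 HFD-T070 5% libraries, 4 were above the highest and 3 below the lowest of the other 7 HFD libraries in Acly. For Sqle, none was above the highest, and 7 were below the lowest. The shares of all genes with such counts were not computed, and the genes were selected on this contrast, so these counts are descriptions.

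**Figure D2:**
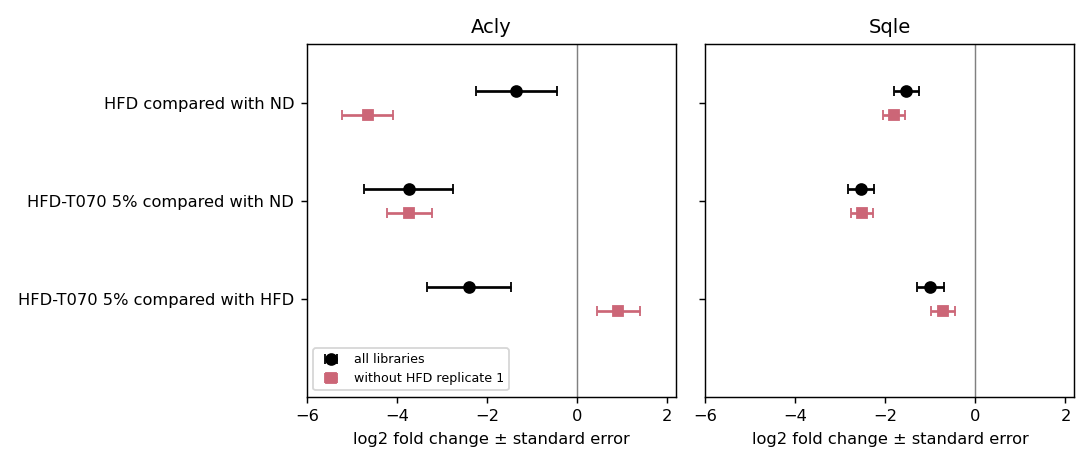
Log2 fold changes of Acly (left) and Sqle (right) with standard errors from edgeR, for the 3 comparisons, over all libraries (black circles) and without HFD replicate 1 (red squares). Leaving out that library moved Acly from −1.35 to −4.65 in HFD compared with ND and from −2.39 to 0.92 in HFD-T070 5% compared with HFD, whereas Sqle stayed below 0 throughout.

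The balance of the genes was followed as log2 CPM of Acly minus log2 CPM of Sqle, which asks whether a diet moved them by unequal amounts. The ND libraries lay at 6.43 ± 1.91 (SD, n = 8), from 3.15 in replicate 8 to 9.15 in replicate 7. The HFD libraries lay at 4.43 ± 1.72 (SD, n = 8), with replicate 1 at 8.55 and the others between 3.39 and 4.64. The HFD-T070 5% libraries lay at 5.17 ± 1.16 (SD, n = 8), from 3.47 to 6.82. The difference of HFD from ND, between means of 4.43 and 6.43, had a standard error of 0.91 (exact two-sided permutation test, p = 0.0468, adjusted over the 2 comparisons 0.0936), and that of HFD-T070 5% from ND was −1.26 (standard error 0.79, exact p = 0.133, adjusted 0.133). Neither passed after adjustment. Without HFD replicate 1, the HFD difference was −2.59 (exact p = 0.00466, adjusted 0.00932). This is again a description, since that library was set aside on its values at these genes. Without ND replicate 8, the differences were −2.47 in HFD and −1.73 in HFD-T070 5%, both with an adjusted exact permutation p of 0.0252. Over the alternatives, the adjusted p was between 0.00932 and 0.185 for HFD and between 0.0252 and 0.256 for HFD-T070 5%. Between HFD-T070 5% and HFD, the balance differed by 0.74 (standard error 0.73), and by 1.33 (standard error 0.45) without HFD replicate 1, given as a description.

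**Figure D3:**
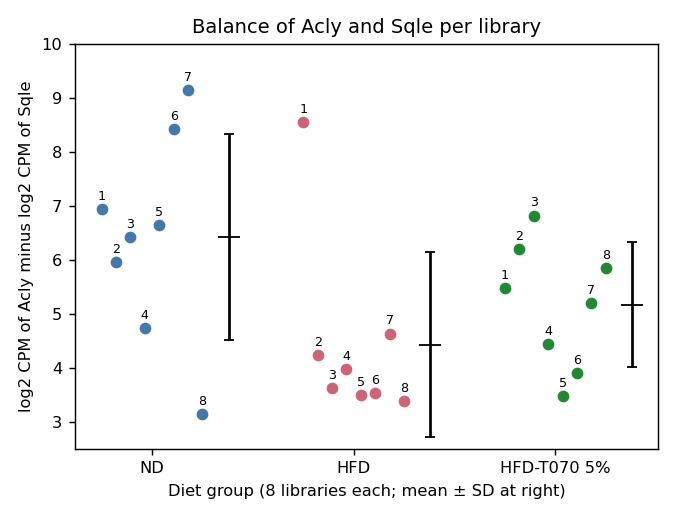
Log2 CPM of Acly minus log2 CPM of Sqle in each library by diet group, with replicate numbers and the group mean ± SD (n = 8) at the right of each group. The ND libraries span 3.15 to 9.15, and all HFD libraries but replicate 1 (8.55) lie between 3.39 and 4.64.

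Within groups, the correlation of Acly and Sqle was negative in ND, close to 0 in HFD-T070 5%, and in HFD set by a single library. In the ND group, the library with the most Acly (replicate 7) had the least Sqle, and the library with the least Acly (replicate 8) had the most Sqle. Across the 8 ND libraries, Pearson's r of log2 CPM was −0.68 and Spearman's rho −0.60. Without the 2 libraries farthest from the median of Acly (replicates 4 and 8), r was −0.53 and rho −0.43 (n = 6), and leaving out any single ND library gave r between −0.84 and −0.47. For comparison, 13.9% of all genes tested had a rho with Acly at least as far from 0 in these libraries, so the value was not unusual among genes. Library totals were 17836533 in ND replicate 7 and 20740364 in ND replicate 8. Across the ND libraries, r with the library total was −0.33 for Acly and 0.21 for Sqle, and the part of depth was not tested.

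In the HFD group, r was 0.92 and rested on replicate 1, since rho was 0.10, and without that library r was −0.16 and rho −0.36 (n = 7). With the 2 libraries farthest from the median of Acly left out (replicates 1 and 7), r was −0.59 and rho −0.26 (n = 6). In the HFD-T070 5% group, r was −0.18 and rho −0.21. Without replicates 3 and 5, the farthest from the median of Acly, r was −0.05 and rho −0.03 (n = 6), and leaving out single libraries gave r between −0.51 (without replicate 4) and 0.19 (without replicate 5). These correlations belong to the rule by which the genes were grouped and are given as descriptions. They share each library's scaling, and counting error alone gives most of the spread of Sqle in the HFD-fed livers other than HFD replicate 1.

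**Figure D4:**
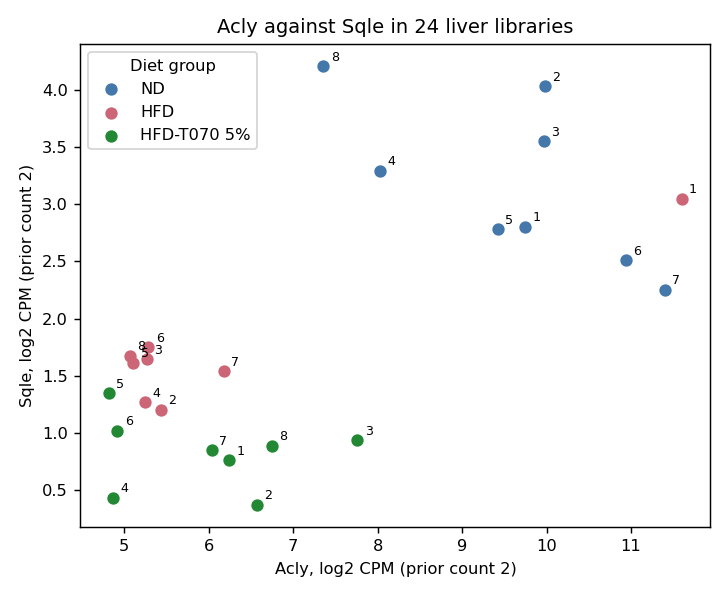
Log2 CPM of Acly (horizontal) against log2 CPM of Sqle (vertical), with a prior count of 2, in 24 liver libraries coloured by diet group and marked with replicate numbers. The ND libraries run from high Sqle and low Acly (replicate 8) to low Sqle and high Acly (replicate 7). HFD replicate 1 lies within their range of Sqle and above their highest Acly.

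Over all 24 libraries, which mix differences between and within groups, the rho between Acly and Sqle was 0.57, at which Sqle ranked 2549 of 13133 genes by rho with Acly. The gene most like Acly was ENSMAUG00000006166, with a rho of 0.96. It had 28.5 ± 25.3 CPM in ND (SD, n = 8), 59.4 CPM in HFD replicate 1, between 0.0900 and 1.30 CPM in the other HFD libraries, and between 0.0477 and 3.83 CPM in HFD-T070 5%. Its order followed that of Acly also within groups, with a rho of 0.98 in ND, 0.98 in HFD-T070 5% and 0.69 in HFD. As it was chosen for the highest rho of all genes, high values are favoured by the choice. Its lowest levels in the HFD-fed livers were near the floor. The gene most like Sqle was ENSMAUG00000020000 (rho 0.86), at 23.5 ± 2.34 CPM in ND, 18.6 ± 3.19 CPM in HFD and 16.1 ± 1.36 CPM in HFD-T070 5% (SD, n = 8 each). Its likeness came from the groups more than from single libraries, with a rho of 0.19 in ND, 0.55 in HFD and 0.31 in HFD-T070 5%. The count table names neither.

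Among the genes of that metabolic list, Lipg (endothelial lipase, which hydrolyses phospholipids of lipoproteins) was the most like both, with a rho of 0.69 with Acly and 0.75 with Sqle over all libraries. Within groups, its rho with Acly was −0.40 in ND, 0.76 in HFD and 0.10 in HFD-T070 5%, and its rho with Sqle was 0.24, −0.10 and −0.48 in the same order. Like Acly, it was highest in HFD replicate 1 (112.7 CPM, other HFD libraries at most 18.9 CPM). The lowest rho with Acly was that of Pla2g7 (−0.84), a phospholipase that inactivates platelet-activating factor, and the lowest with Sqle was that of Alox5 (−0.57), the lipoxygenase that begins leukotriene synthesis. Within ND, HFD and HFD-T070 5%, the rho of Pla2g7 with Acly was −0.26, −0.57 and −0.88, and that of Alox5 with Sqle was −0.24, 0.10 and 0.02.

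Of the same list, 4 further genes encode enzymes that make acetyl-CoA, fatty acids or phospholipids, and their levels on the HFD were above those on ND. These are Acss1, which makes acetyl-CoA from acetate in mitochondria, Elovl7, which elongates fatty acids, and Mboat1 and Mboat2, which attach fatty acids to lysophospholipids and, being related, could share reads. The list was chosen on these libraries, so its direction is not independent evidence. Under 2 stricter settings, only 2 of the 4 were tested in HFD compared with ND and in HFD-T070 5% compared with ND. These settings used just the groups compared, or required 10 counts in every library. The other 2 thus passed the filter through libraries in which they were high. Which 2 these are is not given here, so the counts and adjusted p-values that follow are descriptions. In HFD compared with ND, 4 of 4 rose (edgeR, 27.3% of genes tested were called higher), with log2 fold changes from 1.68 for Acss1 (standard error 0.26, adjusted p = 9.95e-06) to 2.58 for Mboat1 (standard error 0.35, adjusted p = 1.96e-06). In HFD-T070 5% compared with ND, 3 of 4 rose (22.3% of genes tested were called higher), with log2 fold changes of 1.42 for Mboat1, 0.97 for Elovl7 and 0.66 for Acss1 (adjusted p = 0.00473, 0.0190 and 0.0435). Mboat2 was at 0.57 (standard error 0.50, adjusted p = 0.368). The count of 3 became 2 without ND replicate 2, 3, 5, 6 or 8, or without HFD-T070 5% replicate 1, 4, 5, 6 or 8. It was also 2 under the 2 stricter settings, where only 2 genes were tested.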

How the data were processed

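Libraries were directional and made after removal of ribosomal RNA, and were read from a single end for 75 cycles. Per the submitters' processing notes, the authors used Trimmomatic 0.36 and STAR 2.7.10 with MesAur1. The deposited values are raw counts. The annotation release and strand setting are not given in the sources used here, so overlapping genes could share reads. The 2 genes and the lists were chosen with earlier results of these data known. Columns were matched to libraries by their labels.

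From the counts, edgeR 4.0.16 (R 4.3.3) was run with filterByExpr (minimum count 10, minimum total 15; 13134 genes, both Acly and Sqle kept), TMM, glmQLFit and glmQLFTest in 1 fit over 24 libraries. P-values were adjusted by Benjamini–Hochberg over all genes (threshold 0.05), and standard errors were obtained as |log2 fold change|/√F. CPM used TMM-scaled totals and log2 CPM a prior count of 2. Exact permutation tests used all 12870 splits (6435 with 7 against 8). Poisson intervals cover counting error only. The procedure was checked on simulated counts. Libraries of a group differed beyond sampling noise (chi-square per degree of freedom at least 8.16). Named genes were Acly, Sqle, for each the gene with the highest rho, and of the listed genes with a symbol the 2 highest and the lowest, plus 4 listed lipid enzymes. A gene of that list is not reported here. Symbols are those the study pairs with identifiers, since the RefSeq table (BCM_Maur_2.0) matched 0 of them.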

Additional observations from a re-analysis of the deposited data

Results flagged for a closer look

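In 9 groups of 8 values (log2 CPM of Acly and Sqle and their difference, in each diet group), the highest or lowest library was noted if it lay farther from its neighbour than 0.526 of the group's range (Dixon's limit). About 1 in 20 groups of unselected values would show this by chance. Both genes were selected on their difference between HFD and HFD-T070 5% in these libraries, which favours a high HFD library. That rate therefore does not apply to the HFD groups. Here 3 of the 9 groups were noted, always through HFD replicate 1, and this is given as a description. Its log2 CPM was 11.60 for Acly, where the other HFD libraries reached 6.18, and 3.05 for Sqle, where they reached 1.75. Its difference between Acly and Sqle was 8.55, where they reached 4.64. The 3 values are not independent, since the third is made from the others.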

How the results depend on the processing

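Sqle in HFD compared with ND, and both genes in HFD-T070 5% compared with ND, kept direction and call under all alternatives: DESeq2 1.42.0 size factors, library totals, the DESeq2 Wald test, limma 3.58.1 voom, both other filters, only the 2 groups compared, the replicate block, the dispersions of edgeR 3 (chosen after seeing the data) and each library left out. Acly in HFD compared with ND passed with voom (−3.44, adjusted p = 0.00132) and with the replicate number as a block (−3.74, adjusted p = 0.00189). Under the same block, Acly in HFD-T070 5% compared with HFD was 0.0737. The cause was not tested. The numbers pair no animals by the labels. Deviations of same-numbered libraries correlated above 0.1 in 7 of 24 pairs, and 3 of 24 libraries correlated best with their own number. The block changed no other call, and the balance kept adjusted exact p-values of 0.109 and 0.180 under pairing.

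With single libraries left out, Acly lay between −4.65 and −0.98 in HFD compared with ND and between −2.79 and 0.92 in HFD-T070 5% compared with HFD. The balance ranged from −2.59 to −1.61 (HFD) and from −1.73 to −0.87 (HFD-T070 5%), both against ND. The r of Acly and Sqle ranged from −0.84 to −0.47 in ND, from −0.16 to 0.94 in HFD and from −0.51 to 0.19 in HFD-T070 5%. In both comparisons with ND, 2 of the 4 listed lipid enzymes were left to test under 2 settings. These were at least 10 counts in every library and only the groups compared. With voom, 1 rather than 3 of the 4 rose in HFD-T070 5% compared with ND. Low counts of Sqle limit differences between single HFD-fed livers.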

Other observations

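Before scaling, the 7 HFD libraries other than replicate 1 held between 715 and 872 counts of Acly, a 1.22-fold range, although their totals spanned 1.84-fold (10789142 to 19809400) and their TMM factors 0.927 to 1.27. Their CPM spanned 2.16-fold, and its highest value, 72.3 CPM, belonged to HFD replicate 7, the library with the smallest total. Over these 7 libraries, Pearson's r of log2 CPM of Acly with the library total was −0.90, and the part of depth was not tested. Median TMM factors were 0.886 in ND, 1.18 in HFD and 1.03 in HFD-T070 5%.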
